A study of Mus musculus with 4 samples.

Results

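The genes described here encode surface proteins by which mouse blood stem and progenitor cells are sorted: Cd34, Ly6a (Sca-1), Thy1, Procr (EPCR, CD201), Cd27, Eng (endoglin, CD105), Prom1 (CD133), Cd44 and Cd38. They were chosen by name, as a list of 9 genes, for their use in sorting, with earlier results of these data known. Rows for 8 of them were found among the 23450 genes of each library, and Cd27 was not analysed here. Transcripts were measured by RNA sequencing of hematopoietic stem cells (HSCs) from mouse bone marrow, with 2000 sorted cells per library. The gate for long-term HSCs (LT-HSC, 2 libraries) took cells without CD48 and CD34 that carried CD150 and much CD9, a tetraspanin. The gate for short-term HSCs (ST-HSC, 2 libraries) took cells without CD48 that carried CD150 and little CD9, and its labels name no choice on CD34. The sources used here do not give strain, age or number of animals, nor do they say that libraries come from different mice, so p-values here reflect the scatter of 4 libraries, and that scatter may be technical.

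Sorting of blood stem cells rests on antibodies against combinations of surface proteins, because no single protein marks them alone. In adult mice, long-term repopulating HSCs are known to be low or negative for CD34 and to carry Sca-1, EPCR and endoglin, while multipotent progenitors gain CD34 and FLT3. An antibody sees protein at the cell surface and sequencing sees transcripts, and these can differ for the same gene.

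The libraries held 13077396 to 16156007 reads, and 13275 to 14548 genes stood above a library's lowest value. A gene at that lowest value had 0 or 1 read and is called unread. Levels are in CPM, reads scaled to a library total of 1000000. Genes of 4 HSC markers (Mecom, Hlf, Slamf1 and Kit) were read in every library and summed to 2079 and 2429 CPM in LT-HSC, against 1590 and 1751 CPM in ST-HSC. Across 12608 genes tested by limma, 0 passed an adjusted p of 0.05 (0% called), and limma-voom also called 0. At an unadjusted p under 0.05, limma gave 368 higher genes (2.92%) and 452 lower genes (3.59%) in LT-HSC, and limma-voom gave 595 in all. Differences of single genes below are therefore values with errors and not calls. For 16.1% of tested genes both LT-HSC libraries stood above both ST-HSC libraries, and for 17.5% below. Of the 8 marker genes, 7 passed the filter on low values, and of these 1 (Procr) lay above, 3 (Cd34, Cd44 and Thy1) lay below and 3 (Ly6a, Eng and Cd38) overlapped. At an unadjusted p under 0.05 stood 1 higher (Procr) and 2 lower (Cd34 and Cd44). In these bulk samples, fewer cells of a type and less RNA per cell cannot be told apart.

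**Figure D1:**
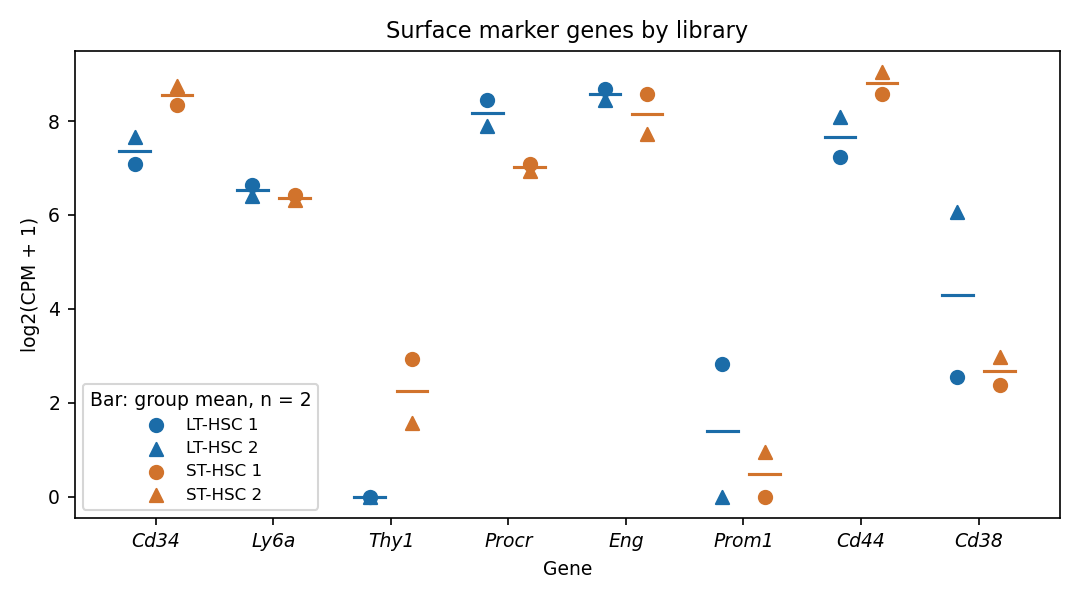
Level of the 8 marker genes on the log2(CPM + 1) scale (y axis) in each library, with blue for LT-HSC, orange for ST-HSC, circles for libraries numbered 1, triangles for libraries numbered 2 and bars for group means (n = 2). The groups are apart for Cd34, Cd44, Thy1 and Procr, and a single LT-HSC library stands high for Cd38.

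Promoters are shown for Procr, Cd34 and Cd44 because the groups did not overlap for these 3 genes and each had at least 1757 reads in every library. RefSeq promoters (GRCm38.p6) were at hand for 6 of the 8 genes. Each line gives the 250 bases before the annotated start, 5′ to 3′ on the gene's own strand: Procr at chr2:155750967-155751216 (plus strand), Cd34 at chr1:194938571-194938820 (plus strand) and Cd44 at chr2:102901666-102901915 (minus strand). Capitals mark matches on either strand to the motifs named after the sequences.
Procr: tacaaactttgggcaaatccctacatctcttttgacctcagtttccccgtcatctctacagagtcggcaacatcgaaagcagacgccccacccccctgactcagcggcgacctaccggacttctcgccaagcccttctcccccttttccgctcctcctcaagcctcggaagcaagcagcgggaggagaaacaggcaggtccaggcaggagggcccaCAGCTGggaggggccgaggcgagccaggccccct
Cd34: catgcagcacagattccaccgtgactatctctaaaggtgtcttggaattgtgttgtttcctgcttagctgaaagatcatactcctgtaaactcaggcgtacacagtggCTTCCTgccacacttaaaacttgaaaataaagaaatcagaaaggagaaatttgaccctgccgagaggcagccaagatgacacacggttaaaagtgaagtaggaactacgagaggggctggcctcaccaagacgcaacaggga
Cd44: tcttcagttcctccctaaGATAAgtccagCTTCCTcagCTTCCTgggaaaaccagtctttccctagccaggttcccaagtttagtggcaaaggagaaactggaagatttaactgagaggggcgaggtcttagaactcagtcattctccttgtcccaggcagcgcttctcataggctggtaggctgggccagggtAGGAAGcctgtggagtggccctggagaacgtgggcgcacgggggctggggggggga

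The motifs searched were GATAA (GATA factors), TGTGGT (Runx), AGGAAG (Ets), CANNTG (the E-box) and GGGCGG (the GC box), on both strands. The Procr stretch held 1 E-box and 0 matches to the other 4 motifs. The Cd34 stretch held 1 Ets match, and the Cd44 stretch held 3 Ets matches and 1 GATA match. Of 32851 RefSeq promoter stretches of this length, 22.6% held the GATA letters, 14.0% Runx, 29.5% Ets, 66.2% an E-box and 32.7% a GC box. The GC content was 61.6% for Procr, 46.4% for Cd34 and 56.4% for Cd44, against a median of 52.4% over all promoters. A match describes these letters only and is no sign of binding.

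Cd34, Procr and Cd44 separated the groups with many reads in every library. Cd34 encodes a sialomucin of progenitor and endothelial cells, and its protein was part of the LT-HSC gate. LT-HSC 1 held 134 CPM of Cd34, LT-HSC 2 201, ST-HSC 1 324 and ST-HSC 2 429.9 CPM. Both LT-HSC libraries were below both ST-HSC libraries, and cells sorted for the absence of CD34 protein still gave 1757 and 3247 Cd34 reads. The mean was 168 ± 47.1 CPM for LT-HSC against 377 ± 74.7 CPM for ST-HSC (SD, n = 2 each), 2.26-fold lower on the log2(CPM + 1) scale. The log2 fold change was -1.18 ± 0.30 (SE, 95% interval -1.95 to -0.41, limma adjusted p = 0.719). On that scale LT-HSC 1 minus LT-HSC 2 was -0.58 and ST-HSC 1 minus ST-HSC 2 was -0.41, both smaller in size than the difference between the groups. An antisense gene model, Gm16897, overlaps Cd34 exons and was unread in all libraries.

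Procr encodes the endothelial protein C receptor, which binds protein C and activated protein C and is among the markers used to enrich HSCs. LT-HSC 1 held 347 CPM of Procr, LT-HSC 2 236, ST-HSC 1 136 and ST-HSC 2 122 CPM. Here the groups stood in the opposite order to Cd34, with both LT-HSC libraries above both ST-HSC libraries. The mean was 292 ± 78.5 CPM for LT-HSC and 129 ± 9.53 CPM for ST-HSC (SD, n = 2 each), 2.21-fold higher on the log2(CPM + 1) scale. This was a log2 fold change of 1.15 ± 0.29 (SE, 95% interval 0.40 to 1.89, limma adjusted p = 0.719). LT-HSC 1 minus LT-HSC 2 was 0.55 and ST-HSC 1 minus ST-HSC 2 was 0.15 on that scale.

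Cd44 encodes the hyaluronan receptor, an adhesion protein of most blood cells. LT-HSC 1 held 149.8 CPM of Cd44, LT-HSC 2 269.7, ST-HSC 1 381 and ST-HSC 2 527 CPM. The 4 libraries stood in the same order as for Cd34, from LT-HSC 1 up to ST-HSC 2. The fitted log2 fold change was -1.15 ± 0.36 (SE, 95% interval -2.07 to -0.23, limma adjusted p = 0.723), 2.23-fold lower. LT-HSC 1 minus LT-HSC 2 was -0.84, larger in size than the -0.50 of LT-HSC 2 minus ST-HSC 1. Leaving out LT-HSC 1 gave a log2 fold change of -0.73, over 1.5 times smaller in size.

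**Figure D2:**
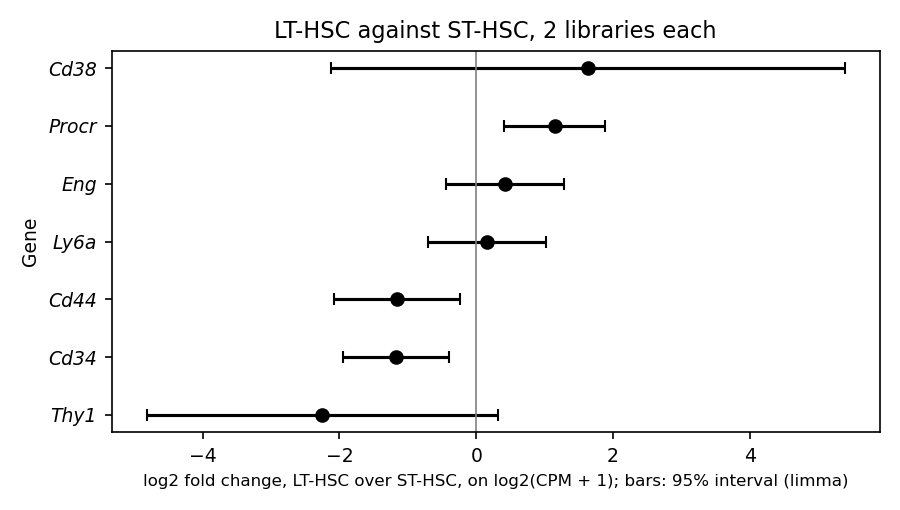
Log2 fold change of LT-HSC over ST-HSC (x axis, on log2(CPM + 1)) for the 7 tested marker genes, with 95% intervals from limma. The intervals of Cd34, Cd44 and Procr leave out 0, while those of Cd38 and Thy1 span several log2 units, and 0 of the 7 passed after adjustment over all genes.

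A ratio of transcripts taken within a library does not depend on how libraries are scaled, apart from the 1 CPM added to each level. The log2 ratio of Procr to Cd34 was 1.36 for LT-HSC 1, 0.23 for LT-HSC 2, -1.25 for ST-HSC 1 and -1.81 for ST-HSC 2. Procr reads outnumbered Cd34 reads in both LT-HSC libraries and were fewer in both ST-HSC libraries. The difference of group means was 2.33 (exact 2-sided permutation p = 0.333, the smallest that 2 against 2 libraries allow). The log2 ratio of Ly6a to Cd34 was -0.43 and -1.26 for LT-HSC and -1.92 and -2.44 for ST-HSC, a difference of 1.33 (exact 2-sided permutation p = 0.333). Both ratios share Cd34 as denominator, so they are not independent of each other or of the Cd34 values. CD34 protein was part of the LT-HSC gate. Ly6a alone had a log2 fold change of 0.15 and Cd34 one of -1.18, so the Ly6a ratio mostly restates Cd34.

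**Figure D3:**
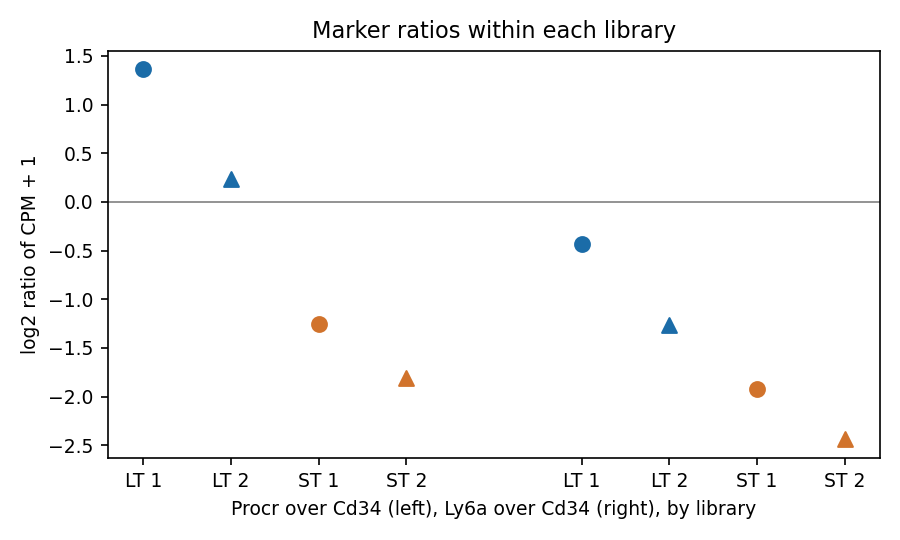
Log2 ratio of CPM + 1 (y axis) of Procr over Cd34 and of Ly6a over Cd34 in each library, with blue for LT-HSC and orange for ST-HSC. For Procr over Cd34 the LT-HSC libraries lie above 0 (0.23 and 1.36) and the ST-HSC libraries below it.

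Ly6a and Eng, whose proteins are used to include HSCs in a gate, overlapped between the groups. Ly6a encodes Sca-1, a small protein held in the membrane by a glycosylphosphatidylinositol (GPI) anchor. LT-HSC 1 held 99.3 CPM of Ly6a, LT-HSC 2 83.2, ST-HSC 1 84.7 and ST-HSC 2 78.5 CPM. Its fold on the log2 scale was 0.15 ± 0.34 (SE, limma adjusted p = 1.0) with a 95% interval from 0.612-fold to 2.02-fold.

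Ly6a belongs to a cluster of similar genes, whose reads may be split or lost in counting. Its longest run shared with a relative is shown because it bears on the Ly6a value. In GENCODE M21 coding sequences (GRCm38), Ly6a and Ly6i share a run of 80 bases, from base 50 to base 129 of the Ly6a coding sequence counted from its start. The shared run is in capitals, with 12 bases on either side.
Ly6a: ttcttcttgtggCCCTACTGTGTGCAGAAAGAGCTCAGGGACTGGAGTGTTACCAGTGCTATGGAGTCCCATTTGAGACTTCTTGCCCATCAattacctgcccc
Ly6i: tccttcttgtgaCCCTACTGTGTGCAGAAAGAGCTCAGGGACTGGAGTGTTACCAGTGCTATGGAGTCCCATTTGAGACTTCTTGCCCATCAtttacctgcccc

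Ly6a shared runs of 52 bases with Ly6c2, 45 with Ly6c1, 35 with Ly6g, 26 with Ly6f and 9 with Ly6e. Of the 378 stretches of 25 bases in the Ly6a coding sequence, 62 occurred in Ly6i and 52 in Ly6c2. How shared reads were counted is not stated in these sources, so the levels of Ly6a and its relatives are uncertain. Ly6i was read at 14.8 and 14.2 CPM in LT-HSC, against 13.2 and 5.12 CPM in ST-HSC. Ly6e, whose longest shared run was the shortest, ranged from 234 to 316 CPM with overlapping groups. Of 20 listed Ly6 genes and other GPI-anchored relatives, 8 were tested and 0 passed. Of those tested, 1 lay above and 2 below (16.1% and 17.5% of all tested genes), with a median log2 fold change of -0.34.

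Eng encodes endoglin, a co-receptor for ligands of the TGF-beta family that is abundant on endothelial cells. LT-HSC 1 held 411 CPM of Eng, LT-HSC 2 350.2, ST-HSC 1 381 and ST-HSC 2 209.5 CPM. ST-HSC 2 was the low library, and the other 3 lay close together. With all libraries the log2 fold change was 0.42 ± 0.33 (SE, limma adjusted p = 0.900), and it was -0.0060 without ST-HSC 2 and 0.85 without ST-HSC 1. Exons of Fpgs overlap Eng on the opposite strand, and the use of strand in counting is not stated, so their reads cannot be told apart where they overlap. Fpgs was read at 57.4 and 74.3 CPM in LT-HSC, against 37.9 and 80.6 CPM in ST-HSC. Of 5 endothelial marker genes, 3 lay above (Vwf, Kdr and Emcn) and 0 below, against 16.1% and 17.5% of all tested genes. Pecam1 and Cdh5 overlapped. Cdh5, which defines endothelial cells, was at 2.52 CPM in LT-HSC 1, unread in LT-HSC 2, and at 2.39 and 9.90 CPM in the ST-HSC libraries. The 5 genes summed to 591 and 641 CPM in LT-HSC, against 240 and 235 CPM in ST-HSC. Vwf made up most of the LT-HSC sums (304 and 379.8 CPM) but not of the ST-HSC sums (45.4 and 9.23 CPM). The part of endothelial cells in the values of Eng and Procr was not tested.

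Thy1, Prom1 and Cd38 had at most 101 reads in each library, except for Cd38 in LT-HSC 2. Thy1 encodes Thy-1 (CD90), a GPI-anchored protein of T cells and neurons that HSCs of some mouse strains carry at a low level. It was unread in both LT-HSC libraries and had 100 reads (6.65 CPM) in ST-HSC 1 and 29 reads (1.95 CPM) in ST-HSC 2. Set against a floor of 3 reads in each LT-HSC library (0.229 and 0.186 CPM), Thy1 was 20.7-fold lower in LT-HSC. With ST-HSC 2 alone it was 9.42-fold lower and with ST-HSC 1 alone 32.0-fold lower. The floor covers counting error only and not the scatter between libraries, so these folds are no lower limits. The log2 fold change of Thy1 was -2.25 ± 1.01 (SE, limma interval -4.82 to 0.32, limma adjusted p = 0.779). Of 5 T cell markers, Cd3e, Cd3d and Il7r were unread in all 4 libraries, Cd3g had 20 and 15 reads in LT-HSC and was unread in ST-HSC. Lck was read at 16.4 and 3.77 CPM in LT-HSC, against 51.4 and 35.7 CPM in ST-HSC. The 5 markers summed to 18.0 and 4.70 CPM in LT-HSC, against 51.4 and 35.7 CPM in ST-HSC.

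Prom1 encodes prominin-1, a membrane protein of cell protrusions that marks human blood progenitors. It had 79 reads (6.04 CPM) in LT-HSC 1 and 14 reads (0.943 CPM) in ST-HSC 2, and was unread in the other 2 libraries. It missed the filter of 1 CPM in 2 libraries and was not tested. Its relative Prom2 had 6 reads in LT-HSC 1 and was unread elsewhere.

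Cd38 encodes an enzyme that consumes NAD at the cell surface, and its protein is used to set adult mouse HSCs apart from progenitors. LT-HSC 1 held 4.82 CPM of Cd38, LT-HSC 2 66.1, ST-HSC 1 4.19 and ST-HSC 2 6.81 CPM. LT-HSC 2 alone was high, and LT-HSC 1 lay between the ST-HSC libraries. The log2 fold change of 1.63 ± 1.46 (SE, limma adjusted p = 0.931) was -0.13 without LT-HSC 2 and 3.398 without LT-HSC 1. Bst1, a relative of Cd38 with a related enzyme activity, was unread in all libraries.

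**Figure D4:**
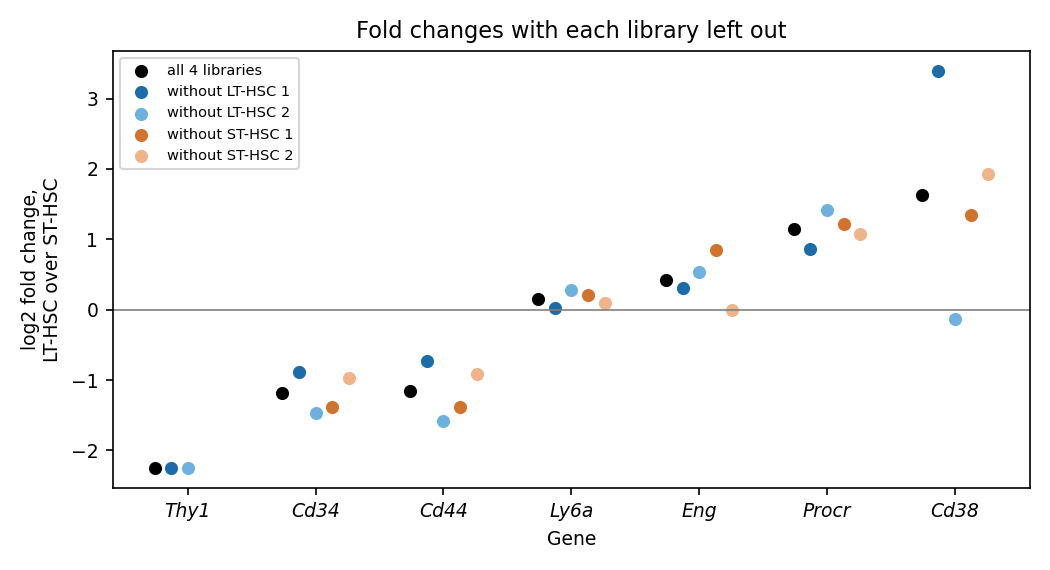
Log2 fold change of LT-HSC over ST-HSC (y axis) for the 7 tested marker genes with all 4 libraries (black) and with each library left out. Cd34, Cd44, Procr and Ly6a keep their sign in each case, Cd38 is below 0 (-0.13) without LT-HSC 2, and Eng is near 0 (-0.0060) without ST-HSC 2. Thy1 has no value without an ST-HSC library because it then misses the filter.

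Levels of different genes were set side by side per length, as CPM per kilobase of the longest coding transcript in GENCODE M21. In LT-HSC the order of mean levels was Procr (183), Eng (111), Ly6a (95.5), Cd34 (65.7), Cd44 (37.4), Cd38 (10.8) and Prom1 (0.738), all in CPM per kilobase, and Thy1 was unread. Procr lay above Eng in both LT-HSC libraries. Eng stood above Ly6a within each LT-HSC library (120.2 against 104.0 and 102.3 against 87.09), but their ranges overlapped. Ly6a lay above Cd34, Cd34 above Cd44 and Cd44 above Cd38, while Cd38 and Prom1 overlapped. In ST-HSC Cd34 came first at 148 CPM per kilobase (127 and 168 in the libraries), above the other 7 genes in both libraries. Eng (86.3), Ly6a (85.5), Cd44 (80.9) and Procr (80.7) followed with overlapping libraries, and Thy1 (2.48), Cd38 (1.68) and Prom1 (0.115) came last. Procr thus stood first in both LT-HSC libraries. Within each ST-HSC library it stood below Cd34 and Ly6a, though the ranges of Procr and Ly6a overlapped. Coding transcripts range from 1305 to 5614 bases for Cd44, 935 to 3422 for Eng, 504 to 1597 for Procr and 336 to 955 for Ly6a. Those of Thy1 range from 446 to 1735 bases and those of Prom1 from 595 to 4089. The isoforms present were not measured, so the places of these genes are uncertain.

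Likeness to other genes was measured as the Euclidean distance between centred log2(CPM + 1) values over the 4 libraries. The gene nearest to Cd34 was Rfc4, a subunit of the clamp loader in DNA replication, at 0.0896, with 130 genes within 0.5. For Procr it was Mnt, a transcription factor gene of the Max network, at 0.0808, with 142 genes within 0.5. For Cd44 it was Gpkow at 0.125, with 136 genes. Within the same distance stood 2452 genes for Ly6a, 526 for Eng, 26 for Thy1 and 4 for Cd38. With 4 libraries these distances describe the libraries only.

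Genes of 22 other proteins used to gate stem and progenitor cells were read beside the members. Of these, 18 were tested, 0 passed over all genes, 9 lay above in both LT-HSC libraries and 3 below, against backgrounds of 16.1% and 17.5%, and their median log2 fold change was 0.23 against -0.010 over all tested genes. Those above included Cd9 and Slamf1 (CD150), whose proteins are in the gate. The list was chosen with earlier results of these data known, so its counts are a description and no test of enrichment. Itga6 (integrin alpha 6) had a log2 fold change of 0.73 ± 0.21 (SE, limma adjusted p = 0.719) from 294 and 324 CPM in LT-HSC, against 184 and 188 CPM in ST-HSC. Esam, an adhesion molecule gene used as an HSC marker, was read at 213 and 191 CPM in LT-HSC, against 139.6 and 141 CPM in ST-HSC. Jam2, a junctional adhesion molecule gene, had 199 and 587 reads in LT-HSC and was unread in ST-HSC. Set against the floor of 3 reads per library, Jam2 was 128-fold higher (75.7-fold with LT-HSC 1 alone). That floor covers counting error only, so neither fold is a lower limit. The log2 fold change of Jam2 was 4.62 ± 1.05 (SE, limma interval 1.93 to 7.31, limma adjusted p = 0.719). Cd244, of the same list, had 164 reads in LT-HSC 1 and 254 in ST-HSC 2 and was unread in LT-HSC 2 and ST-HSC 1.

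The 3 genes below in LT-HSC were Flt3, Cd48 and Itga2b. Flt3, the receptor gained with CD34 in multipotent progenitors, was read at 6.50 and 22.0 CPM in LT-HSC, against 39.0 and 69.6 CPM in ST-HSC. Cd48 had 3 and 3 reads in LT-HSC, against 248 and 576 in ST-HSC, although the protein was gated out of both groups. Itga2b (CD41), an integrin of megakaryocytes and some progenitors, was read at 2.52 and 5.07 CPM in LT-HSC, against 152 and 105 CPM in ST-HSC. Kit, carried by HSCs and progenitors alike, overlapped. Il7r, Fcgr2b and Bst1 were unread in all libraries.

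Markers of maturing cells were set beside Cd34 and Cd44. Over all tested genes, 16.1% lay above and 17.5% below. Of 6 myeloid markers 5 were tested, 1 lay above and 2 below, and they summed to 221 and 166 CPM in LT-HSC, against 204 and 225 CPM in ST-HSC. Among them Mpo, the myeloperoxidase gene, was unread in LT-HSC 1, had 2 reads in LT-HSC 2, and 152 and 317 in ST-HSC. Elane, the neutrophil elastase gene, had 264 reads in LT-HSC 1 and 49 in ST-HSC 2 and was unread in the other 2 libraries. Lyz2, the lysozyme gene and the marker that lay above, was read at 153 and 147 CPM in LT-HSC, against 146 and 140.4 CPM in ST-HSC. Of 5 erythroid markers 4 were tested, 1 lay above and 2 below, and they summed to 144 and 124 CPM in LT-HSC, against 265 and 169 CPM in ST-HSC. All 3 tested megakaryocyte markers of 4 listed lay below, against 17.5% of all tested genes, with sums of 75.2 and 79.5 CPM in LT-HSC, against 240.2 and 193 CPM in ST-HSC. Itga2b carried most of that difference, while the log2 fold changes of Pf4 and Gp9 were -0.47 ± 0.60 and -0.10 ± 0.43 (SE). The part of such cells in the values of Cd34, Cd44 and Thy1 was not tested.

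**Figure D5:**
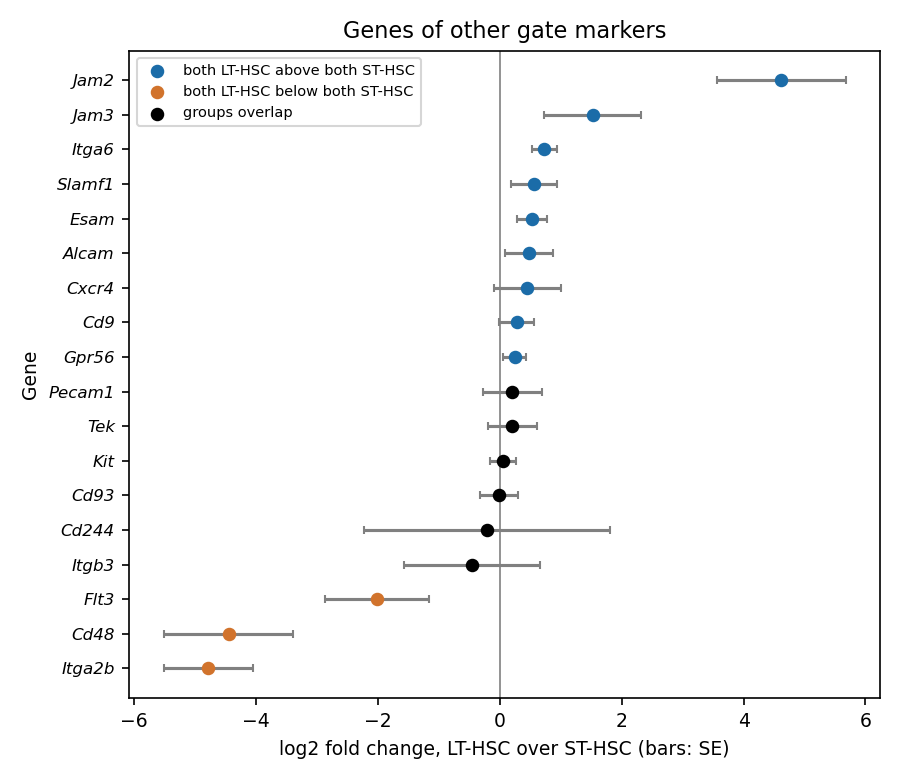
Log2 fold change of LT-HSC over ST-HSC (x axis, bars are SE from limma) for the 18 tested genes of other gate markers, coloured by whether the LT-HSC pair stood wholly above the ST-HSC pair (9 genes), wholly below it (3 genes) or overlapped with it. Itga2b, Cd48 and Flt3 lie lowest and Jam2 highest.

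Ligands and partners of the members were read from further lists, and in each 0 genes passed over all genes. The counts of each list stand against 16.1% above and 17.5% below over all tested genes, with a median of -0.010. Among sialomucins, the class of CD34, and selectin ligands, 7 of 9 genes were tested, with 2 above, 1 below and a median log2 fold change of 0.13. Podxl, which encodes the CD34 relative podocalyxin, had 132 and 95 reads in LT-HSC and 4 in ST-HSC 1, and was unread in ST-HSC 2, the opposite order to Cd34. Selplg, the gene of the P-selectin ligand, was read at 181 and 193 CPM in LT-HSC, against 271 and 258 CPM in ST-HSC. For protein C and its receptors, 10 of 17 genes were tested, with 0 above, 1 below (Itgam) and a median of 0.0070. Proc, the gene of protein C, which EPCR binds, was unread in all libraries, as were F3, F7 and F10. Thbd, the thrombomodulin gene, had 145 to 211 reads per library.

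For hyaluronan and other partners of CD44, 14 of 22 genes were tested, with 2 above and 4 below and a median of -0.24. The hyaluronan synthase gene Has1 was unread in all libraries. Hmmr, which encodes another hyaluronan-binding protein with a role at the spindle, had 4 and 18 reads in LT-HSC, against 628 and 1128 in ST-HSC. Stab2, a hyaluronan scavenger receptor gene, was unread in both LT-HSC libraries and had 427 and 230 reads in ST-HSC. Stab1, its relative, had 2 and 5 reads in LT-HSC, against 344 and 108 in ST-HSC.

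For endoglin, 20 of 25 genes of TGF-beta and BMP signalling were tested, with 1 above (Smad7), 3 below and a median of -0.07. Smad7, an inhibitor of the pathway, was read at 39.8 and 51.1 CPM in LT-HSC, against 15.0 and 5.12 CPM in ST-HSC. Id1, a target of BMP signalling, had 86 and 2 reads in LT-HSC, against 148 and 198 in ST-HSC. Gdf2 and Bmp10, whose products bind endoglin, were unread in all libraries. Of 10 genes of CD27 signalling and TNF receptor adaptors, 9 were tested, with 3 above, 0 below and a median of 0.30. Map3k14, the gene of the kinase NIK, was read at 68.7 and 91.0 CPM in LT-HSC, against 52.7 and 29.7 CPM in ST-HSC. Cd70, the gene of the CD27 ligand, was unread in all libraries.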

How the data were processed

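RNA of 2000 sorted cells per library was amplified with a SMARTer kit, per the labels' protocols. TopHat and mm9 are named in the submitters' processing notes, and the counter, annotation and filters are not stated there. The authors deposited log2 values for 23450 gene symbols. Undone, those above a library's lowest value sum to 1000000 within 0.00442% and step in whole reads (100% of values up to 100 reads, within 0.1), so the lowest value was taken as 0 or 1 read and set to 0. Reading it as reads plus 1 missed that sum by 0.0853% to 0.116%, and was kept as an alternative. The design for raw counts did not apply.

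Genes of at least 1 CPM in 2 or more libraries (12608) were tested on log2(CPM + 1) with limma 3.58.1 in R 4.3.3 (trend, robust, statmod 1.5.0), without the replicate number, adjusted by Benjamini-Hochberg over all of them. Such folds understate changes of low genes. The code was run on simulated reads with known changes, which checks the code and not the power to find changes in these libraries. Chi-square per degree of freedom between libraries was 182 for LT-HSC and 143 for ST-HSC, so none was a copy. The members and lists were chosen with earlier results of these data known. Some genes first put on these lists are not reported here. Named are the members, other gate markers, up to 3 genes per further list by smallest p, unread partners and each member's nearest gene. Thbd, Prom2, Ly6 relatives, overlapping genes and further cell type markers were named after their values were seen. Amplified reads are not independent molecules, so floors cover counting error only. Promoters, lengths and coding sequences are of GRCm38, another build than the data. Alternatives were 2 other scalings, added values, filters, thinning, limma-voom, shrinkage without the robust step, a looser threshold, the replicate block, each library left out and, chosen after seeing the data, the reading as reads plus 1 and the deposited values as they are.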

Additional observations from a re-analysis of the deposited data

How the results depend on the processing

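Of 125 values of the members and ratios under alternatives, 2 reversed and 123 were counted as the same. For members this means the same direction only, since 0 genes passed under any setting. For ratios it means the same direction and a change within the spread of libraries. Cd38 was -0.13 without LT-HSC replicate 2 and 3.398 without LT-HSC replicate 1, and Eng was -0.0060 without ST-HSC replicate 2 and 0.85 without ST-HSC replicate 1. With libraries left out in turn, log2 fold changes ranged from -1.47 to -0.89 for Cd34, -1.58 to -0.73 for Cd44, 0.87 to 1.42 for Procr and 0.028 to 0.28 for Ly6a, and the ratio differences from 1.76 to 2.89 (Procr to Cd34) and 0.92 to 1.75 (Ly6a to Cd34). The fitted value of Thy1, unread in LT-HSC, depends on the added value and ranged from -6.73 by limma-voom to -0.85 with 5 CPM added; it gave no value with a filter of 5 CPM or without an ST-HSC library. By limma 0 genes passed over all genes under any of the 17 alternatives run, and counts at an unadjusted p under 0.05 ranged from 413 without ST-HSC replicate 2 to 1118 without LT-HSC replicate 2, against 820. Where a group was left with 1 library, it was assumed to vary like the other. With the replicate number as a block, 0 genes passed, 887 stood at an unadjusted p under 0.05, and no member's call changed (Cd34 -1.18 ± 0.23, Procr 1.15 ± 0.27, Cd44 -1.15 ± 0.22, SE). Deviations of libraries with the same number correlated at 0.051 across genes. Whether such libraries share animals or a sort day is not stated in the sources, and this correlation cannot decide it. TMM and median-of-ratios factors moved the median of all genes from -0.010 to 0.015 and 0.010. Thinned to the smallest library, Cd38 was 1.64 and Thy1 -2.21, against 1.63 and -2.25.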

Other observations

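Sca-1 and Thy-1 reach the surface on a GPI anchor, and all 31 genes of anchor synthesis, transfer and release found in the files were tested. Of these, 0 passed over all genes (limma), 2 stood higher and 0 lower at an unadjusted p under 0.05 (2.92% and 3.59% of all tested genes), and 5 lay above and 7 below in both LT-HSC libraries (16.1% and 17.5% of all tested genes). Their median log2 fold change was -0.16 against -0.010 over all genes. Pigw, an acyltransferase gene of anchor synthesis, was read at 27.1 and 27.9 CPM in LT-HSC, against 0.930 and 5.93 CPM in ST-HSC. Pigz, a mannosyltransferase gene of the same route, was unread in both LT-HSC libraries and had 120 and 40 reads in ST-HSC, the library order of Thy1. Flot1, which encodes a protein of membrane rafts, was read at 265 and 186 CPM in LT-HSC, against 134 and 119 CPM in ST-HSC.

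CD38 consumes NAD, and 16 of 22 genes of NAD metabolism were tested. Of these, 0 passed over all genes (limma) and 0 stood apart at an unadjusted p under 0.05. Of the 16 tested, 1 lay above and 3 below (16.1% and 17.5% of all tested genes), with a median of -0.05. Nmnat1 and Nmnat3, which encode enzymes that make NAD from its mononucleotide, lay below in CPM in both LT-HSC libraries, and LT-HSC 1 was far below the other 3. Nmnat1 was at 0.765 CPM (10 reads) in LT-HSC 1, while LT-HSC 2 had 39.5 and the ST-HSC libraries 62.9 and 91.1 CPM. Nmnat3 was at 6.88 CPM (90 reads) in LT-HSC 1, while LT-HSC 2 had 107 and the ST-HSC libraries 113 and 149 CPM.

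Among antigens of the lineage cocktail that removes mature cells, 8 of 14 genes were tested. Of these, 0 passed over all genes (limma) and 0 stood apart at an unadjusted p under 0.05. Of the 8 tested, 1 lay above and 4 below (16.1% and 17.5% of all tested genes). Their median log2 fold change was -0.85 against -0.010 over all genes. Klrb1c, the gene of the NK1.1 antigen, had 115 and 965 reads in LT-HSC, was unread in ST-HSC 1 and had 69 in ST-HSC 2. Cd4 was unread in LT-HSC 1 and had 102 reads in LT-HSC 2, while the ST-HSC libraries had 282 and 151. Cd3e and Cd5 were unread in all libraries. Summed B cell markers (5 genes) were 105 to 219 CPM and summed stromal markers (4 genes) 0.371 to 26.1 CPM per library, both with overlapping groups.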
